A study of Mus musculus with 27 samples.

Results

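Proliferative lesions of the thyroid were compared with normal thyroid tissue of the same mouse in 9 mice, which gave 9 lesion libraries (PL) and 9 libraries of normal tissue (NT), 18 of the 27 libraries of the study. The members were chosen by the mouse number in the sample titles, which pairs each lesion with its own normal tissue. The other 9 libraries (NCT) came from normal thyroid of mice that were not exposed. PL and NT mice were exposed, and the study's title names radiation. Their genotype, strain and age and the dose and time of exposure are not in the labels. NT was normal tissue that lay next to histologic abnormalities, so it is no unexposed control. In each of the 3 groups 6 mice were female and 3 male. Tissue came from laser capture microdissection, which cuts selected areas out of a tissue section. RNA was measured with QuantSeq, which reads the 3′ end of polyadenylated transcripts. Mice are numbered 1 to 9 here, and mice 2, 8 and 9 were the males.

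The thyroid follicle is a ball of epithelial cells around a store of thyroglobulin, the protein from which thyroid hormone is cut. Follicular cells fold and glycosylate thyroglobulin in the endoplasmic reticulum (ER), send it through the Golgi into the lumen, iodinate it there, take it back and digest it in lysosomes. Thyrotropin drives these steps through its receptor and cyclic AMP. C cells, which make calcitonin, lie between the follicles, and stroma, vessels and nerves surround them.

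Library totals were 4693945 to 14148601 counts, and a library detected 17330 to 21097 genes. Levels are in CPM, the count of a gene relative to all counts of its library, and Tg, the thyroglobulin gene, reached 12532 to 39014 CPM (median 28146) in NT and 9455 to 33558 CPM (median 21932) in PL, so the defining transcript of follicular cells was abundant in every library. Parathyroid hormone transcripts (Pth) were abundant in PL of mouse 2 and in NT of mice 7 and 9, with 25707 CPM as the highest NT value and 27396 CPM as the highest PL value against group medians of 174 and 54.7 CPM. Airway transcripts such as Bpifa1 were abundant in NT of mice 7, 8 and 9. Counts of calls are therefore given without these mice too. The markers of other cell types are described after the genes of the lesions.

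Of 14461 tested genes 445 (3.08%) passed an adjusted p of 0.05 in the paired fit with edgeR, 255 (1.76%) higher in lesions and 190 (1.31%) lower. Changes under 2-fold made up 244 of these calls and larger changes 201. The number of calls was 257 without mouse 2, 209 without mouse 3, 240 without mouse 4, 234 without mouse 7 and 137 without mouse 8. Counts were 95 without mice 2, 7 and 9, 46 without mice 7, 8 and 9, and 6 in the 6 females, with no change of sign of any of the 445 genes in these fits. Of the 445 calls 123 stood whichever mouse was left out. The plot of change against level shows where the calls lie.

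**Figure D1:**
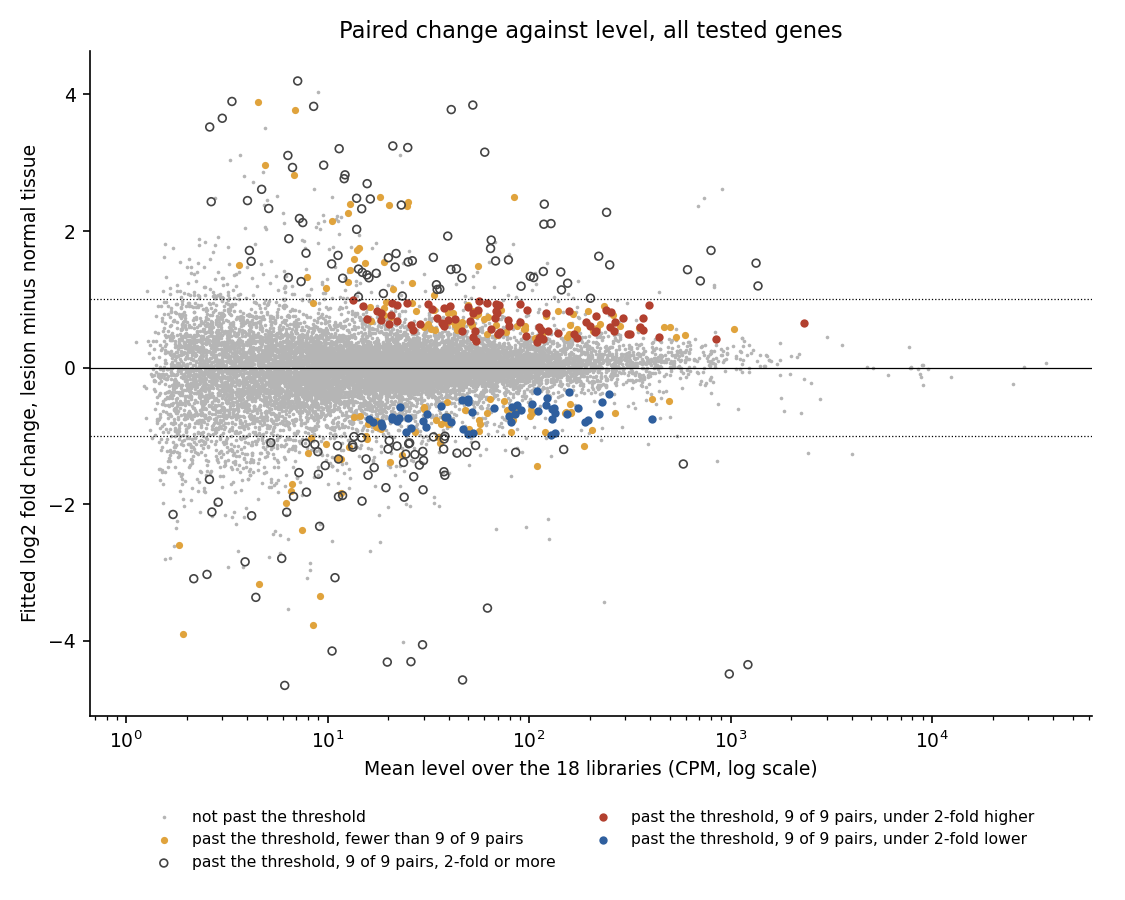
Fitted log2 fold change of lesion minus normal tissue (y) against the mean level over the 18 libraries (x, CPM on a log scale), 1 point per tested gene. The 133 moderate changes that had the same sign in 9 of 9 pairs (red higher, blue lower) lie between the dotted 2-fold lines and at higher levels (median 70.2 CPM) than the 151 larger changes (open circles, median 19.8 CPM). Small changes pass the threshold more readily at high levels.

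Agreement over the 9 pairs was counted gene by gene. The within-mouse difference had the same sign in 9 of 9 pairs for 528 genes (3.65% of those tested), 268 higher (1.85%) and 260 lower (1.8%), and 284 of them were also among the calls. The moderate changes are the 133 genes (0.92%) that passed the threshold, kept their sign in 9 of 9 pairs and had a fitted change under 2-fold. Of these 80 (0.553%) were higher and 53 (0.367%) lower in lesions. The sign was taken from log2 CPM with a prior count and scaled over the 18 paired libraries. On the printed CPM, scaled over all 27 libraries, 8 of the 133 did not have 1 sign in 9 of 9 pairs, among them Car2, Atp11a, Galnt7 and Spns2, a count added after the data were seen. Their median change was 0.68 on the log2 scale and the smallest 0.35. The larger changes with 9 of 9 pairs numbered 151 (1.04%), 81 higher and 70 lower. Moderate changes had a median level of 70.2 CPM, against 19.8 CPM for the larger changes and 18.3 CPM over all tested genes. A change under 2-fold passes the threshold more readily where counts are high, so the selection itself favours such levels. All 133 had a mean of 10 CPM or more. At the edge of the threshold the last moderate gene inside was Mllt6 (log2 change -0.47, adjusted p = 0.0497) and the first outside was Foxn3 (-0.56, adjusted p = 0.0503). At the edge of 2-fold the largest moderate rise was Tpd52l1 (0.99) and the smallest larger rise Tcn2 (1.02), while Enpp2 (-0.98) and Ifi211 (-1.01) stood on either side among the falls. Another 244 genes had the same sign in 9 of 9 pairs and did not pass, 107 with a positive and 137 with a negative difference.

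Of the 133 moderate genes 27 belong to a list used here. Mesd, an ER chaperone for receptors of the low-density lipoprotein receptor family, had 44.4 to 85.1 CPM (median 54.8) in NT and 69.8 to 185 CPM (median 121) in PL. It rose in 9 of 9 mice, by 0.41 on the log2 scale (CPM) in mouse 7 to 1.47 in mouse 3 (fitted log2 change 0.93, SE 0.12, adjusted p = 0.00385), and the groups overlapped. In unexposed thyroid its level was 42.2 to 73.9 CPM (median 48.5). Ppib, the ER peptidyl-prolyl isomerase cyclophilin B, had 89.8 to 215 CPM (median 150.3) in NT and 156 to 355 CPM (median 247) in PL. Its rise (log2 change 0.67, SE 0.10, adjusted p = 0.00646) was 0.22 in mouse 1 and 1.13 in mouse 9, with overlapping groups. Prdx4, the peroxiredoxin of the ER lumen, had 24.3 to 55.9 CPM (median 33.8) in NT and 33.6 to 136 CPM (median 69.4) in PL. That rise (log2 change 0.98, SE 0.16, adjusted p = 0.0085) was near 0 in mouse 7 at 0.01 and was highest in mouse 3 at 1.78. Galnt7, which adds the first sugar of mucin-type O-glycans, had 16.1 to 35.5 CPM (median 22.3) in NT and 26.4 to 56.3 CPM (median 42.2) in PL, with a difference of only 0.02 in mouse 2 (log2 change 0.85, SE 0.15, adjusted p = 0.0117).

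Oxr1, a gene of oxidation resistance, and Celsr2, a cadherin of planar cell polarity, were the moderate rises with no overlap between tissues. Oxr1 had 67.8 to 105 CPM (median 85.7) in NT and 112 to 209 CPM (median 157) in PL (log2 change 0.80, SE 0.13, adjusted p = 0.0085), so the lowest lesion lay above the highest normal library. Celsr2 had 28.9 to 63.6 CPM (median 51.0) in NT and 68.3 to 142 CPM (median 86.2) in PL (log2 change 0.91, SE 0.16, adjusted p = 0.0108), and mouse 3 showed its largest rise at 1.89. Over all tested genes 17 (0.118%) had no overlap between the 9 lesions and the 9 normal tissues, 10 with every lesion above every normal tissue (0.0692%) and 7 with every lesion below (0.0484%). Of these 16 passed the threshold. Atp11a encodes a phospholipid flippase of the plasma membrane, and its level was 136 to 395 CPM (median 273) in NT and 393 to 644 CPM (median 511) in PL (log2 change 0.92, SE 0.17, adjusted p = 0.0158). It was level in mouse 6 at 0.01, the highest NT library and the lowest PL library. Tmem30a, the subunit that such flippases need to leave the ER, also rose (log2 change 0.72, SE 0.15, adjusted p = 0.018), with 132 to 349.7 CPM (median 200.2) in NT and 217 to 597 CPM (median 333) in PL with overlap.

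Further moderate rises were those of Car2, a cytosolic carbonic anhydrase, Pald1, which encodes paladin, Nxn, the thioredoxin-like nucleoredoxin, and Lsr, a lipoprotein receptor that is also part of tricellular junctions. Car2 had 23.8 to 61.5 CPM (median 45.3) in NT and 38.1 to 108 CPM (median 90.4) in PL (log2 change 0.94, SE 0.15, adjusted p = 0.00825), and mouse 5 showed no difference (0.00). Pald1 had 15.0 to 46.7 CPM (median 28.4) in NT and 42.7 to 67.3 CPM (median 48.0) in PL (log2 change 0.90, SE 0.15, adjusted p = 0.0085) and was up by at least 0.48 in each mouse. Lsr had 112 to 212 CPM (median 157) in NT and 169 to 452 CPM (median 246) in PL (log2 change 0.76, SE 0.13, adjusted p = 0.0104), highest in mouse 3. Nxn rose by 0.80 (SE 0.13, adjusted p = 0.00913), with 50.9 CPM as the NT median and 87.3 CPM as the PL median. Among abundant surface proteins Cd24a, a glycoprotein anchored by a lipid tail, had 843 to 3014 CPM (median 1471) in NT and 1763 to 4653 CPM (median 3029) in PL (log2 change 0.66, SE 0.12, adjusted p = 0.0117). Its groups overlapped widely, and every lesion was above its own normal tissue by 0.31 to 1.18. Bsg, which escorts lactate transporters to the cell surface, rose likewise (log2 change 0.73, SE 0.13, adjusted p = 0.0117), with 147 to 391 CPM (median 256) in NT and 278 to 606 CPM (median 466) in PL. Car2, Pald1, Nxn, Lsr, Cd24a and Bsg kept their calls whichever mouse was left out. Without the mouse as a block, Cd24a was at adjusted p = 0.155.

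**Figure D2:**
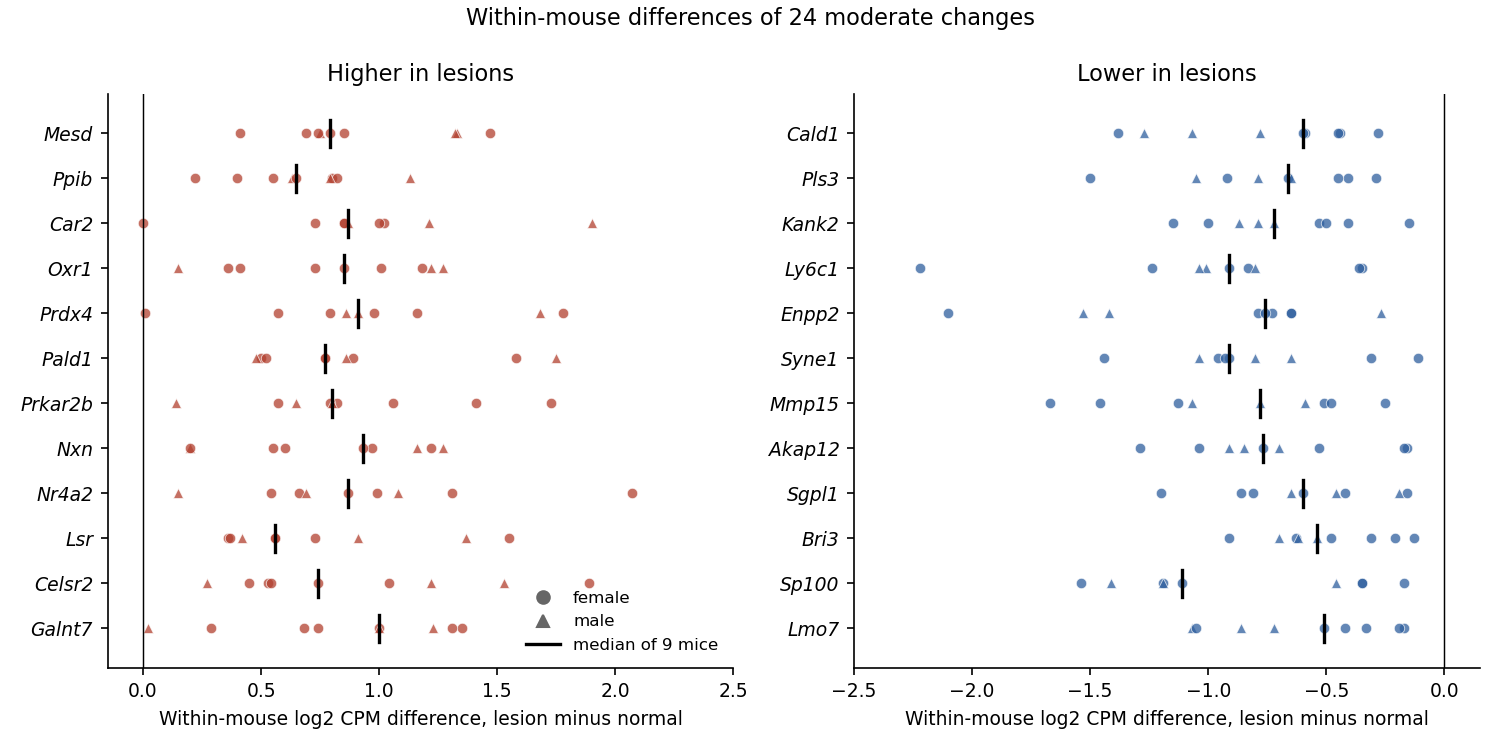
Within-mouse log2 CPM differences, lesion minus normal, for the 12 moderate rises (left) and 12 moderate falls (right) with the smallest p, 1 point per mouse (circles female, triangles male), with a bar at the median of 9 mice. The points of a gene lie on 1 side of 0, which the selection of these genes required on this scale, and Car2 and Prdx4 each have a mouse within 0.01 of 0.

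The moderate fall with the smallest p was that of Cald1, which encodes caldesmon, a protein that binds actin and myosin and is abundant in smooth muscle and stroma. Its level was 187 to 315 CPM (median 243) in NT and 91.0 to 202 CPM (median 139) in PL. It fell in 9 of 9 mice (log2 change -0.76, SE 0.12, adjusted p = 0.0085), least in mouse 6 and most in mouse 3, with overlapping groups. Pls3, the actin-bundling protein plastin 3, had 113 to 223 CPM (median 168) in NT and 58.0 to 131 CPM (median 92.5) in PL (log2 change -0.75, SE 0.12, adjusted p = 0.0085), and mouse 3 again showed the largest difference. Kank2, which links focal adhesions to the cortex, had 77.2 to 129 CPM (median 101.4) in NT and 44.9 to 91.1 CPM (median 57.7) in PL (log2 change -0.68, SE 0.11, adjusted p = 0.0085). Syne1, the nuclear envelope anchor nesprin-1, had 34.1 to 78.7 CPM (median 48.0) in NT and 14.7 to 45.6 CPM (median 29.1) in PL (log2 change -0.80, SE 0.14, adjusted p = 0.00973), and mouse 5 differed by only -0.11. Lmo7, a protein of cell junctions, also fell (log2 change -0.59, SE 0.12, adjusted p = 0.0165).

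Other moderate falls are given 1 by 1. Enpp2 encodes autotaxin, which makes lysophosphatidic acid outside the cell, and had 121 to 228 CPM (median 157) in NT and 44.4 to 144 CPM (median 83.1) in PL. Its fall (log2 change -0.98, SE 0.17, adjusted p = 0.00937) came closest to 2-fold among the moderate falls and was -2.10 in mouse 3. Sgpl1, which degrades sphingosine 1-phosphate, had 138 to 358 CPM (median 209) in NT and 89.4 to 198 CPM (median 141) in PL (log2 change -0.60, SE 0.11, adjusted p = 0.0135). Other genes of sphingolipids moved either way in lesions, since Cers6, a ceramide synthase, rose (log2 change 1.19, SE 0.23, adjusted p = 0.0206), Cers4, another ceramide synthase, fell (log2 change -0.57, SE 0.14, adjusted p = 0.0442) and Spns2, an exporter of sphingosine 1-phosphate, rose (log2 change 0.68, SE 0.17, adjusted p = 0.0476). Mmp15, a matrix metalloproteinase anchored in the membrane, had 19.5 to 51.1 CPM (median 34.2) in NT and 11.3 to 26.95 CPM (median 16.2) in PL (log2 change -0.89, SE 0.16, adjusted p = 0.0126). Akap12, a scaffold of protein kinase A, fell by 0.72 on the log2 scale (SE 0.14, adjusted p = 0.0135), and Ly6c1, a surface protein known from endothelial and myeloid cells, by 0.96 (SE 0.16, adjusted p = 0.00863). Sp100, a protein of nuclear bodies, had 26.9 to 83.1 CPM (median 37.4) in NT and 10.4 to 37.7 CPM (median 19.7) in PL (log2 change -0.87, SE 0.17, adjusted p = 0.0158), with the smallest difference in mouse 1. Calls of Cers6, Cers4 and Spns2 stood in 7, 1 and 2 of the 9 leave-one-out fits, with their highest adjusted p at 0.0542 without mouse 8, 0.108 without mouse 3 and 0.13 without mouse 8.

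Caveolae are small pits of the plasma membrane with a protein coat, and Cavin1, Cavin3 and Ehd2, which belong to them, were among the calls. Cavin1, which forms the coat, had 124 to 427 CPM (median 232) in NT and 75.5 to 295 CPM (median 125.4) in PL (log2 change -0.79, SE 0.18, adjusted p = 0.0314). Cavin3 had 35.0 to 83.0 CPM (median 61.9) and 13.5 to 55.9 CPM (median 30.7) (log2 change -0.89, SE 0.22, adjusted p = 0.0458), and Ehd2, which steadies the neck of the pit, 37.3 to 89.6 CPM (median 72.9) and 16.6 to 58.1 CPM (median 29.4) (log2 change -0.97, SE 0.20, adjusted p = 0.0206). Mice 3 and 6 stood at the ends, with the largest and smallest difference for each of the 3 called genes. The caveolins Cav1 (log2 change -1.29, SE 0.31, adjusted p = 0.0533) and Cav2 (-0.87, SE 0.22, adjusted p = 0.0503) and the coat protein Cavin2 (-0.91, SE 0.25, adjusted p = 0.0727) did not pass. All 6 genes were picked with their values known and make up no list, and caveolae are known to be abundant in endothelium, fibroblasts and muscle. In the same libraries the summed level of 24 fibroblast and matrix genes was 3500 to 7282 CPM in NT and 1815 to 6874 CPM in PL (medians 4890 and 3211), and that of 21 endothelial genes 1050 to 1965 CPM in NT and 1005 to 1831 CPM in PL (medians 1400 and 1139). The fibroblast sum was lower in the lesion of 8 of 9 mice and the endothelial sum in 6 of 9, and their part in these falls was not tested. In bulk tissue, fewer cells of a type and less RNA per cell cannot be told apart. The calls stood in 3, 3 and 7 of the 9 leave-one-out fits, with the highest adjusted p at 0.0887 for Cavin1 without mouse 8, 0.107 for Cavin3 without mouse 7 and 0.057 for Ehd2 without mouse 8.

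Pathways were described from 42 lists of genes, with each list's median change set beside the median of 0.00 over all tested genes. The calls of a list are to be read beside the 3.08% of all tested genes that passed, 1.76% higher and 1.31% lower. Of 35 tested genes for ER folding and stress, 5 rose (Ppib, Pdia6, Erp29, Manf and Pdia3), none fell, and 32 had a positive change, against 7265 of 14461 genes in all. The median over the list was 0.29, and its within-mouse median was above 0 in 9 of 9 mice, from 0.05 to 0.57. Pdia6, a disulfide isomerase, had 247 to 476 CPM (median 384) in NT and 310.3 to 753 CPM (median 549) in PL (log2 change 0.60, SE 0.14, adjusted p = 0.0343), higher in 8 of 9 mice. Erp29, a chaperone of secretory proteins, had 65.1 to 150.02 CPM (median 93.3) and 101.1 to 171 CPM (median 134) (log2 change 0.48, SE 0.11, adjusted p = 0.0351). Hspa5, the main ER chaperone and a common sign of ER stress, stood at 1386 to 3199 CPM (median 1917) in NT and 1509 to 3535 CPM (median 2337) in PL and did not pass (log2 change 0.20, SE 0.12, adjusted p = 0.424, higher in 5 of 9 mice). P4hb, a partner enzyme in disulfide formation, was just outside the threshold (log2 change 0.42, SE 0.11, adjusted p = 0.0524). Only Ppib among the 5 calls stood in all 9 leave-one-out fits, and the others in 1 to 3, with adjusted p up to 0.123 for Pdia3 without mouse 3.

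The promoter of Pdia6 holds the ER stress response element (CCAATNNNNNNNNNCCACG, searched on both strands), a motif known from ER chaperone genes. It is shown as the 1 called gene of that list with a match, from RefSeq on GRCm38.p6 at chr12:17266339-17266638, plus strand. The stretch runs from 250 bases before to 50 after a start, with the matched bases in capitals. A gene counts if any of its starts in RefSeq has a match, and the first such start is shown.
Pdia6: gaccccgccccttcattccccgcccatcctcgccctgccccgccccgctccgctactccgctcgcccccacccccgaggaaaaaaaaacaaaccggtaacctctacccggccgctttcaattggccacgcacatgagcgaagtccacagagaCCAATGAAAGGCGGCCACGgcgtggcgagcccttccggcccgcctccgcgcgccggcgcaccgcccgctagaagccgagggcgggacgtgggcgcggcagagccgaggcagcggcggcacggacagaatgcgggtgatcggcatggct
The element was found in 9 of the 28 list members with a promoter in the table (32.1%), Hspa5 among them, and in 16 of 10252 tested genes (0.156%). Among the genes higher in lesions it was in 1 of 190 (0.526%). A match describes the letters only.

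Translocation into the ER and N-glycosylation showed the same direction at smaller size. Of 41 tested genes 4 rose (Rpn2, Ssr1, Ssr4 and Ddost), none fell, and 36 had a positive change, with a median of 0.20 and within-mouse medians above 0 in 9 of 9 mice. Rpn2, a subunit of the enzyme that attaches N-glycans, had 164 to 266 CPM (median 187) in NT and 221 to 486 CPM (median 262) in PL, with overlap (log2 change 0.60, SE 0.11, adjusted p = 0.0127). Ddost, another subunit of that enzyme, had 75.3 to 111 CPM (median 96.8) and 94.0 to 172 CPM (median 115), a difference of 0.16 to 0.66 in every mouse (log2 change 0.37, SE 0.09, adjusted p = 0.0445). Ssr1 and Ssr4, subunits of the translocon-associated complex, rose by 0.44 (SE 0.09) and 0.56 (SE 0.12), Ssr4 in 8 of 9 mice. Of 41 tested genes of early vesicle traffic 3 rose, all of the p24 family of cargo receptors, none fell, and the median was 0.15. Tmed3 had 70.7 to 191 CPM (median 111) in NT and 127 to 268 CPM (median 216) in PL (log2 change 0.79, SE 0.14, adjusted p = 0.0117), Tmed4 rose by 0.52 (SE 0.10, adjusted p = 0.0177) and Tmed10 by 0.44 (SE 0.11, adjusted p = 0.0368). Rpn2 and Tmed3 kept their calls in all 9 leave-one-out fits, Tmed4 in 8, Ssr1 in 6, Ssr4 in 5 and Tmed10 in 2. Ddost kept it in none, with adjusted p up to 0.117 without mouse 8.

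Lysosomal genes had the most calls of the pathway lists by number. By share other lists had more, such as mucins and the apical surface (5 of 14) and S100 proteins and annexins (6 of 20). Of all tested genes 3.08% passed. Of 44 tested genes 7 rose and none fell, 35 had a positive change and the median was 0.31, with within-mouse medians from 0.03 to 0.77, above 0 in 9 of 9 mice. Ctsb, the cysteine protease cathepsin B, had 402 to 1410 CPM (median 824) in NT and 1110 to 3535 CPM (median 1922) in PL, with a difference of 0.20 in mouse 2 and 2.17 in mouse 8 (log2 change 1.20, SE 0.20, adjusted p = 0.00937). Ctsl, cathepsin L, had 203 to 809 CPM (median 308) and 318 to 2331 CPM (median 901) (log2 change 1.27, SE 0.17, adjusted p = 0.00537). Both proteases are known to digest thyroglobulin, and in both the ranges of the 2 tissues overlapped. Npc2, which carries cholesterol out of lysosomes, had 257 to 1391 CPM (median 623) and 916 to 3352 CPM (median 1818) (log2 change 1.53, SE 0.29, adjusted p = 0.0236), and mouse 6 showed nearly no difference at 0.07. Glb1, a galactosidase, had 39.1 to 82.8 CPM (median 49.3) and 60.0 to 139.5 CPM (median 101.1) (log2 change 0.70, SE 0.13, adjusted p = 0.0135). Arsb, a sulfatase of dermatan sulfate, rose by 0.70 (SE 0.15), Naglu, which digests heparan sulfate, by 0.61 (SE 0.13) and Ctsa, a carboxypeptidase that shields Glb1, by 0.77 (SE 0.16, higher in 8 of 9 mice). Ctsd, the aspartic cathepsin, stood at 174 to 1272 CPM (median 548) and 473 to 1368 CPM (median 602) and did not pass (log2 change 0.30, SE 0.21, adjusted p = 0.512). Aga, a lysosomal enzyme that frees N-glycans from asparagine and is outside the list, also rose (log2 change 0.73, SE 0.15, adjusted p = 0.0191).

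The cathepsins are abundant in macrophages too, whose 20 markers summed to 1060 to 4444 CPM in NT and 538 to 3941 CPM in PL (medians 2465 and 2010). That sum was lower in the lesion of 6 of 9 mice, and its part in the cathepsin values was not tested. Of the 20 markers, all with a negative change (median -0.32), Cd163, a scavenger receptor, fell past the threshold and none rose. Its call stood in 2 of the 9 leave-one-out fits (0.104 without mouse 3), and mouse 9 stood apart at -5.18. Ctsb, Ctsl and Glb1 kept their calls in all 9 leave-one-out fits, Naglu in 8 and Npc2, Arsb and Ctsa in 6, with adjusted p up to 0.0662 for Npc2 without mouse 8, 0.07 for Arsb without mouse 8 and 0.0708 for Ctsa without mouse 8. Without mice 7, 8 and 9 the list's median was 0.12.

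Promoters of 4 of the 7 called lysosomal genes hold the E-box CACGTG, a palindrome that is known as a binding motif of the lysosomal regulator TFEB and many other factors. They are shown because all 4 genes rose, from RefSeq on GRCm38.p6, 250 bases before to 50 after a start, with the E-box in capitals. A gene counts if any of its starts in the table has the motif, and the first such start is shown. For Ctsa and Ctsl the start shown lies inside the gene model used for the counts, which begins at 164832873 and, on the minus strand, at 64370890. Ctsa lies at chr2:164833523-164833822 and Glb1 at chr9:114400828-114401127, both on the plus strand, Naglu at chr11:101069844-101070143 on the plus strand and Ctsl at chr13:64370471-64370770 on the minus strand.
Ctsa: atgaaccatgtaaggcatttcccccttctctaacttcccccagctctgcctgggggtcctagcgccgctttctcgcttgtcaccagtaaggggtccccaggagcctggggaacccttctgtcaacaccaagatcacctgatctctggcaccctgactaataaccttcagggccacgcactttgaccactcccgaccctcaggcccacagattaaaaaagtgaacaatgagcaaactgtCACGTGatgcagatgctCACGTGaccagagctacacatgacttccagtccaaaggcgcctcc
Ctsl: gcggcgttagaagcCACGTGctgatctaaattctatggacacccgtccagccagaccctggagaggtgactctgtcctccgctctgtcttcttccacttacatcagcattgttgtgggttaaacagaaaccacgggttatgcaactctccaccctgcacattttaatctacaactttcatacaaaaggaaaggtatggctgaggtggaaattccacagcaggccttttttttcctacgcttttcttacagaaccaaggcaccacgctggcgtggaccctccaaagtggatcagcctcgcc
Glb1: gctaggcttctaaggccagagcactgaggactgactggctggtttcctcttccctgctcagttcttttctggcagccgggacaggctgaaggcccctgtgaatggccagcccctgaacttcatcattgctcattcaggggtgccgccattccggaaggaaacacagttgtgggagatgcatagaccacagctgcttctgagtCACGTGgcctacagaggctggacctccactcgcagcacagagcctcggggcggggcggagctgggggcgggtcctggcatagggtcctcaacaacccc
Naglu: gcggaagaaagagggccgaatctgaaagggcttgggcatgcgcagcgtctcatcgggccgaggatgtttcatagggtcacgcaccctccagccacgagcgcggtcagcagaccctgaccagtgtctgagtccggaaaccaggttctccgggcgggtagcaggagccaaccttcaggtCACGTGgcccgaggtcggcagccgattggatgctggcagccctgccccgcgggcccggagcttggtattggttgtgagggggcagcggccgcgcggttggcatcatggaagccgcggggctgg
The E-box was found in 14 of 34 lysosomal genes with a promoter in the table (41.2%), in 1182 of 10252 tested genes (11.5%), in 27 of 190 genes higher in lesions (14.2%) and in 14 of 141 lower genes (9.93%). Npc2 and Arsb have a promoter in the table and no E-box in it. The 8-letter form TCACGTGA, which contains the E-box, was in 6 of the 34 lysosomal genes (17.6%), of which Ctsa was called, and in 2.18% of tested genes. A match is a description of the letters and not a shown site.

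**Figure D3:**
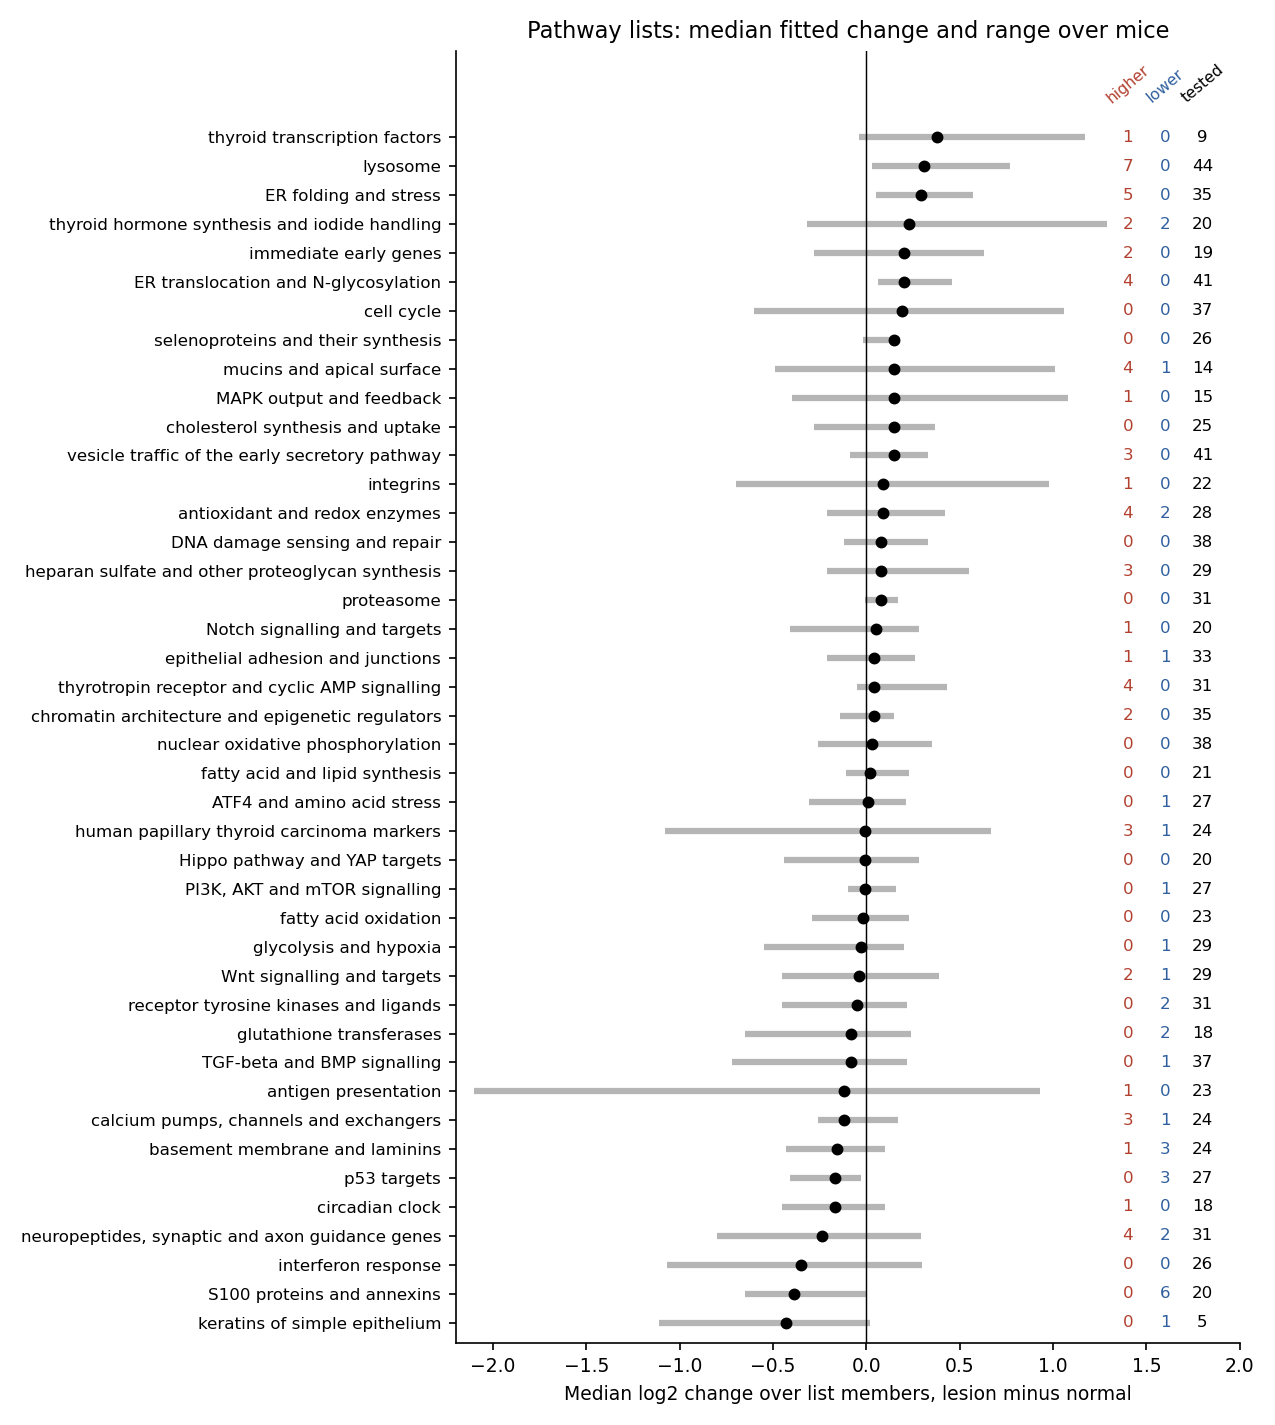
Median fitted log2 change over the tested members of the 42 pathway lists (black points), with the lowest and highest within-mouse median of the 9 mice (grey bars) and, at the right, the number of members that passed higher, lower and were tested. The bars of the lysosome (0.03 to 0.77), ER folding (0.05 to 0.57) and ER translocation (0.06 to 0.46) lists lie above 0 and that of the p53 targets (-0.41 to -0.03) below it.

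Of 31 tested genes of the thyrotropin receptor and cyclic AMP pathway 4 rose and none fell, with a list median of 0.04. Tshr, the receptor, had 25.1 to 152 CPM (median 81.5) in NT and 127 to 359 CPM (median 181) in PL (log2 change 1.40, SE 0.23, adjusted p = 0.0117), and 37.9 to 119.8 CPM (median 59.4) in unexposed thyroid. It was higher in each lesion, most in mice 3 and 9, and the ranges of the tissues overlapped. Prkar2b, a regulatory subunit of the cyclic AMP-dependent kinase, had 18.8 to 52.7 CPM (median 35.1) and 36.3 to 82.4 CPM (median 63.5) (log2 change 0.88, SE 0.15, adjusted p = 0.0085), and here mouse 1 had the largest rise and mouse 2 the smallest. Pde1c, a phosphodiesterase that degrades cyclic nucleotides, had 11.6 to 33.1 CPM (median 19.7) and 21.9 to 92.7 CPM (median 41.6) (log2 change 1.21, SE 0.27, adjusted p = 0.0333), and Crem, a cyclic AMP-responsive transcription factor, rose by 0.55 (SE 0.14, adjusted p = 0.0446). Pde4b was at 0.75 (SE 0.20, adjusted p = 0.0613) and Pde4d at 0.62 (adjusted p = 0.425). Pde1a, a close relative of Pde1c outside the list, fell (log2 change -1.14, SE 0.27, adjusted p = 0.034), with 10.1 to 22.2 CPM (median 15.0) in NT and 1.95 to 10.2 CPM (median 7.20) in PL. Tshr and Prkar2b kept their calls in all 9 leave-one-out fits, Pde1a in 4, Pde1c in 3 and Crem in 2, with adjusted p up to 0.0874 for Pde1c without mouse 8, 0.0729 for Pde1a without mouse 7 and 0.0992 for Crem without mouse 2.

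The rise of Tshr was shared with the next genes on its chromosome. The position of Tshr on GRCm38 is chromosome 12 (91384563 to 91549808, plus strand). The next tested genes downstream are Gtf2a1, a subunit of the general transcription factor TFIIA (91555262 to 91590487, minus strand), Ston2, an endocytic adaptor (91633009 to 91788387, minus strand), and Sel1l, a part of ER-associated degradation (91806043 to 91849157, minus strand). Gtf2a1 had 37.5 to 89.9 CPM (median 62.6) in NT and 94.2 to 220.2 CPM (median 144) in PL, with no overlap (log2 change 1.32, SE 0.20, adjusted p = 0.00822). Ston2 had 11.5 to 39.8 CPM (median 24.2) and 29.3 to 65.0 CPM (median 49.8) (log2 change 1.15, SE 0.23, adjusted p = 0.0206). Sel1l had 174 to 276 CPM (median 236) and 217 to 372 CPM (median 275) and did not pass (log2 change 0.29, SE 0.11, adjusted p = 0.149). Cep128, a centriole gene whose start lies just upstream of Tshr on the other strand (90998492 to 91384409), had 5.78 to 12.9 CPM (median 9.86) and 4.68 to 14.5 CPM (median 9.08) (log2 change -0.07, SE 0.25, adjusted p = 0.921). Tshr, Gtf2a1 and Ston2 were higher in 9 of 9 mice, and in each of them mice 3 and 9 had the 2 largest differences, 2.19 to 2.61 on the log2 scale. The NT library of mouse 9, which had the highest level of Pth, held the lowest NT level of each gene (25.1, 37.5 and 11.5 CPM). The part of that library in the differences of mouse 9 was not tested. Ston2 was near level in mouse 6 at 0.10 and kept its call in 7 leave-one-out fits (0.0619 without mouse 8), the other 2 genes in all 9. Tshr and Gtf2a1 lie 5454 bases apart and run toward each other, and whether the authors' counting used strand is not given in the sources used here.

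**Figure D4:**
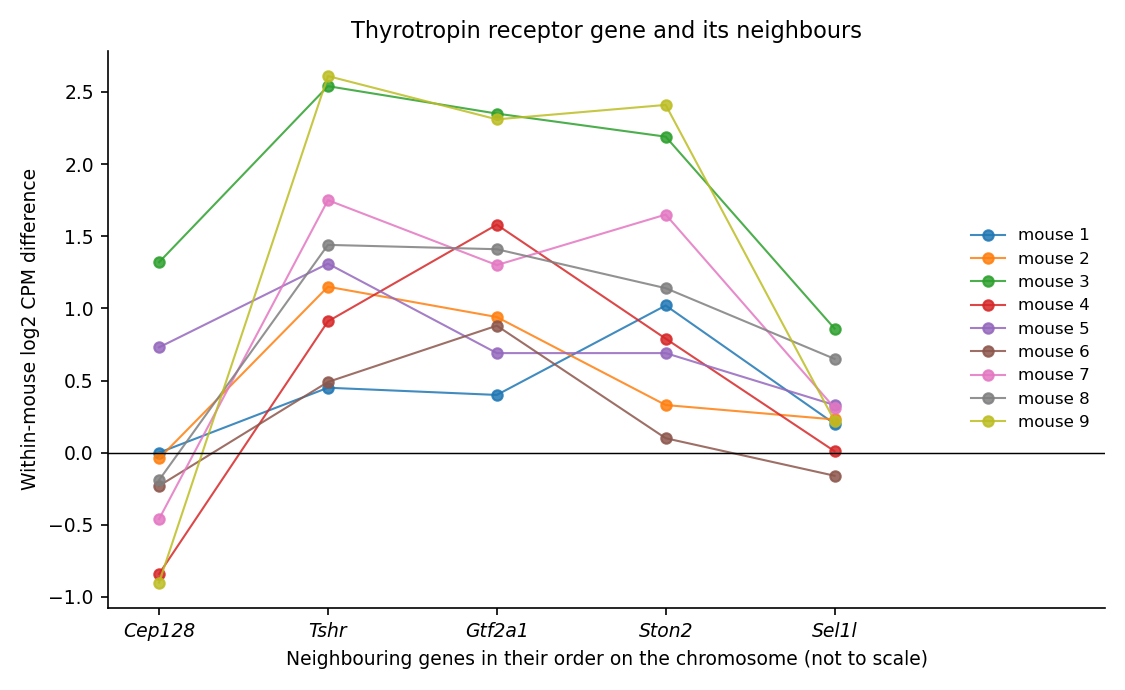
Within-mouse log2 CPM difference, lesion minus normal (y), for Tshr and its neighbouring tested genes in chromosomal order (x, not to scale), 1 line per mouse. The lines rise from Cep128 to Tshr in 9 of 9 mice, stay high over Gtf2a1 and Ston2 in mice 3 and 9 (2.19 to 2.61) and are lower at Sel1l. The NT library of mouse 9 held the lowest NT levels of Tshr, Gtf2a1 and Ston2.

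Of 14422 pairs of adjacent tested genes 27 were both past the threshold in the same direction, 19 higher and 8 lower in lesions. Singly, 1.76% of tested genes were called higher and 1.31% lower, and the number of pairs these shares would give was not worked out. Some of the 27 have overlapping gene models, such as Asb3 with Erlec1 and Paip2 with Slc23a1, so that their reads may not be told apart. Tlnrd1 and Mesd were another of the 27 pairs, on chromosome 7 at 83879873 to 83884305 (minus strand) and 83884466 to 83901532 (plus strand). They start next to each other and run apart. Tlnrd1, a gene of actin bundling, had 19.1 to 40.1 CPM (median 26.5) in NT and 37.4 to 60.6 CPM (median 48.2) in PL (log2 change 0.81, SE 0.16, adjusted p = 0.0184), higher in 8 of 9 mice. The stretch between them is shown as the start region of the leading moderate rise, from RefSeq on GRCm38.p6 at chr7:83884139-83884438, plus strand, with the 47 bases between the RefSeq starts of Tlnrd1 and Mesd in capitals.
Mesd: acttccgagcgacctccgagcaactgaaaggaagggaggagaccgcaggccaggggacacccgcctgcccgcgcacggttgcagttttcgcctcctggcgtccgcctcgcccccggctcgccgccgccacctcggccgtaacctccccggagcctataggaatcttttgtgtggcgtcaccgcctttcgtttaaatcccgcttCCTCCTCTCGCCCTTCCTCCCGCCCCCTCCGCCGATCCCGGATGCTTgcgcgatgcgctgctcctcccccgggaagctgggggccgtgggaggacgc
Muc4 and Muc20, membrane mucins whose gene models overlap on chromosome 16, so that their reads may not be told apart, rose as well (2.69, SE 0.60, and 1.75, SE 0.33). Retsat, a retinol saturase, and Tgoln1, a protein of the trans-Golgi network, end 7 bases apart on opposite strands of chromosome 6 and rose by 0.63 and 0.59 (SE 0.14 and 0.11). Reads at their 3′ ends may not be told apart. Scg5 and Arhgap11a, which lie next to each other on chromosome 2, rose by 1.43 and 1.17 (SE 0.23 and 0.29). Other pairs were near copies, such as Gstm1 and Gstm2 (-1.20 and -1.79), Mndal and Ifi211 (-0.54 and -1.01) and 4 pairs of predicted genes on chromosome 14, whose reads the counting may have split. Chromosome by chromosome, the median difference of a mouse lay between -0.18 and 0.12 relative to all genes, and 177 of 180 such values were within 0.1.

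Thyroid hormone synthesis moved in both directions. Of 20 tested genes 2 rose, the cathepsins Ctsb and Ctsl, and 2 fell, Slc5a8, an apical anion transporter (-1.43, SE 0.31, adjusted p = 0.0325), and Duoxa1, which matures the oxidase that makes peroxide (-1.54, SE 0.39, adjusted p = 0.0491). The median was 0.23 over the 9 mice, 0.04 in the females and -0.06 without mice 2, 7 and 9. Slc5a8 kept its call in 4 and Duoxa1 in 2 of the 9 leave-one-out fits (0.0889 without mouse 8 and 0.117 without mouse 3), and without the mouse as a block Duoxa1 was at adjusted p = 0.461. Slc5a5, the iodide importer, had 3.18 to 180.5 CPM (median 97.2) and 35.2 to 511 CPM (median 100.7) (log2 change 0.16, SE 0.71, adjusted p = 0.938), and mouse 9 stood apart at 7.20. The NT library of mouse 9 held the lowest level of Slc5a5 among NT and the highest level of Pth, and the part of that library in this difference was not tested. Tg was lower in 6 of 9 lesions (log2 change -0.24, SE 0.19, adjusted p = 0.567). Of 9 transcription factors of the thyroid, Glis3, which binds near genes of hormone synthesis, rose, with 7.93 to 18.9 CPM (median 12.2) in NT and 15.2 to 30.5 CPM (median 20.6) in PL (log2 change 0.84, SE 0.21, adjusted p = 0.0413), in 1 of the 9 leave-one-out fits past the threshold (0.0981 without mouse 3). Pax8 was at 0.57 (SE 0.20, adjusted p = 0.145) and Nkx2-1 at 0.62 (SE 0.20, adjusted p = 0.119). Of the 9 factors 7 had a positive change, and their median of 0.38 was the highest of the 42 pathway lists. An unadjusted p under 0.05 in edgeR was found for 6 of them, against 17.6% of all tested genes, and DESeq2 called 5 and limma-voom 1. Their within-mouse median was above 0 in 8 of 9 mice, from -0.04 to 1.17.

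Redox enzymes split by gene. Of 28 tested members 4 rose, Sod3, Prdx4, Prdx3 and Prdx1, and 2 fell, Gpx8 and Prdx6, with a median of 0.09. Sod3, the extracellular superoxide dismutase, had 20.7 to 252 CPM (median 108) in NT and 109.6 to 519.5 CPM (median 346) in PL and 39.0 to 128 CPM (median 59.1) in unexposed thyroid, and rose by 0.90 to 2.41 in the 9 mice (log2 change 1.63, SE 0.17, adjusted p = 0.00142). Among the peroxiredoxins, enzymes that remove peroxide, the ER member Prdx4 is described above, the mitochondrial member Prdx3 rose by 0.69 (SE 0.15, adjusted p = 0.0267) and the cytosolic Prdx1 by 0.48 (SE 0.11, adjusted p = 0.0343), each in 8 of 9 mice. Prdx6 fell, with 148 to 229 CPM (median 179) in NT and 62.7 to 188 CPM (median 128) in PL (log2 change -0.68, SE 0.16, adjusted p = 0.0344). Prdx2 was at 0.10 (SE 0.10) and Prdx5 at -0.06 (SE 0.12), and neither passed. Gpx8, a peroxidase of the ER membrane, fell, with 28.4 to 44.6 CPM (median 39.9) in NT and 16.8 to 40.6 CPM (median 20.7) in PL (log2 change -0.69, SE 0.15, adjusted p = 0.0244), with a difference of only -0.01 in mouse 5. Of 18 tested glutathione transferases Gstm1 and Gstm2 fell and none rose. Both had their highest NT levels in mice 7, 8 and 9 (Gstm1 292, 384 and 229 CPM, Gstm2 120, 71.7 and 74.9 CPM). The part of these NT libraries, rich in airway transcripts, was not tested. Sod3 and Prdx4 kept their calls in all 9 leave-one-out fits, Gpx8 in 6, Prdx3 in 4, Prdx1 in 3 and Prdx6 in 2 (0.0785 without mouse 8).

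Of 24 tested calcium pumps, channels and exchangers 3 rose and 1 fell, with a median of -0.12. Ryr3, a release channel of the ER, was at 0.398 to 6.78 CPM (median 1.39) in NT and 3.36 to 32.99 CPM (median 19.3) in PL (log2 change 2.96, SE 0.37, adjusted p = 0.0032), and 1 lesion, that of mouse 9, lay below the highest normal library. Atp2b2, a plasma membrane calcium pump, had 0 to 8.22 CPM (median 2.61) in NT and 0.747 to 92.6 CPM (median 9.58) in PL (log2 change 2.48, SE 0.50, adjusted p = 0.0254), while its relative Atp2b4 fell, with 69.6 to 129 CPM (median 103) in NT and 50.6 to 107 CPM (median 63.1) in PL (log2 change -0.54, SE 0.11, adjusted p = 0.018). Stim2, which senses calcium in the ER, rose by 0.49 (SE 0.11, adjusted p = 0.0266). Of 29 genes of heparan sulfate and other proteoglycans 3 rose and none fell. Hs3st4 and Hs3st3a1 add the rare 3-O-sulfate to heparan sulfate and rose by 3.22 (SE 0.47) and 1.44 (SE 0.32), and Gpc4, a glypican that carries such chains, rose, with 4.93 to 17.7 CPM (median 7.29) in NT and 10.6 to 51.5 CPM (median 18.7) in PL (log2 change 1.55, SE 0.27, adjusted p = 0.0112). Hs3st3a1 kept its call in 4 leave-one-out fits, with adjusted p up to 0.0829 without mouse 8.

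Genes of retinoid handling were also picked with their values known. Lrat, which esterifies retinol for storage, had 6.26 to 42.6 CPM (median 21.3) in NT and 20.8 to 294 CPM (median 60.8) in PL (log2 change 1.87, SE 0.34, adjusted p = 0.0196). Aldh1a1, which oxidizes retinal to retinoic acid, had 22.3 to 159 CPM (median 41.1) and 7.80 to 20.97 CPM (median 18.5). Its groups did not overlap, and it was just outside the threshold (log2 change -1.55, SE 0.38, adjusted p = 0.0562). Its highest NT levels were in mice 7, 8 and 9 (134, 87.9 and 159 CPM), whose NT libraries were rich in airway transcripts. Without mice 7, 8 and 9 the change of Aldh1a1 was -0.91 (adjusted p = 0.194 in edgeR). The part of these libraries in its fall was not tested. Lrat kept its call in 8 of the 9 leave-one-out fits.

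Of 35 chromatin genes 2 rose, none fell and the median was 0.04, where 3.08% of all tested genes passed. Hdac2, a histone deacetylase, had 32.4 to 58.6 CPM (median 35.4) in NT and 49.96 to 109.7 CPM (median 71.1) in PL (log2 change 0.85, SE 0.15, adjusted p = 0.0117), while its close relative Hdac1 had 56.2 to 97.1 CPM (median 70.5) and 60.3 to 91.1 CPM (median 72.0) (log2 change 0.06, SE 0.10, adjusted p = 0.801). Hmga2, an architectural protein of embryonic chromatin, had 5.11 to 34.0 CPM (median 10.2) and 24.4 to 72.0 CPM (median 32.0) (log2 change 1.56, SE 0.27, adjusted p = 0.0111), and mouse 6 differed by only 0.12. Of 19 immediate early genes 2 rose, both orphan nuclear receptors of the Nr4a family, and the median was 0.20. Nr4a2 had 25.4 to 82.0 CPM (median 43.4) and 51.5 to 118 CPM (median 93.6) (log2 change 0.93, SE 0.16, adjusted p = 0.00989) and Nr4a3 2.17 to 16.03 CPM (median 7.46) and 7.06 to 78.4 CPM (median 18.2) (log2 change 1.32, SE 0.25, adjusted p = 0.0135). Nr4a1 was at 0.46 (SE 0.46, adjusted p = 0.656). These 4 calls stood in all 9 leave-one-out fits, but in the 6 females Hdac2 was at adjusted p = 0.0913 and Hmga2 at 0.145, and without mice 7, 8 and 9 at 0.0785 and 0.113. Per2 was the 1 of 18 clock genes past the threshold, higher by 0.95 (SE 0.23, adjusted p = 0.0403), and its call stood in 2 of those fits.

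Signalling lists had medians from -0.08 to 0.15 and scattered calls. Of 29 Wnt genes 2 rose and 1 fell, with a median of -0.04. Wnt5a, a ligand known for signalling without β-catenin, had 4.47 to 16.6 CPM (median 12.5) in NT and 15.3 to 60.5 CPM (median 31.8) in PL (log2 change 1.47, SE 0.27, adjusted p = 0.0139), Apc, a brake of β-catenin, rose by 0.53 (SE 0.12) and Nkd2, an inhibitor of the pathway, fell, with 26.2 to 61.3 CPM (median 38.6) in NT and 5.63 to 32.3 CPM (median 17.6) in PL (log2 change -1.36, SE 0.21, adjusted p = 0.00736). Notch1 was the 1 of 20 Notch genes to rise (0.61, SE 0.13, adjusted p = 0.0208) and Phlda1 the 1 of 15 MAPK output genes (0.58, SE 0.12, adjusted p = 0.0205), each in 8 of 9 mice. Of 31 receptor tyrosine kinases and ligands none rose and 2 fell, Fgf1 (-0.67, SE 0.15, adjusted p = 0.027) and Fgfr3 (-2.38, SE 0.55, adjusted p = 0.0358). Foxo1 fell among 27 genes of PI3K, AKT and mTOR (-0.45, SE 0.11, adjusted p = 0.0435) and Ltbp4 among 37 of TGF-beta (-0.65, SE 0.15, adjusted p = 0.0333). With 1 call each, both lists were near the 3.08% of all tested genes that passed. Calls of Fgfr3, Foxo1 and Ltbp4 stood in 2 leave-one-out fits each, of Fgf1 in 4, Apc in 5, Notch1 in 7 and Phlda1 in 8, and the call of Nkd2 and that of Wnt5a in all 9.

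Of 27 p53 targets none rose and 3 fell, with a median of -0.17 and a within-mouse median below 0 in 9 of 9 mice, from -0.41 to -0.03. Gadd45b, a stress sensor, had 14.3 to 30.03 CPM (median 22.6) in NT and 4.87 to 14.9 CPM (median 11.2) in PL (log2 change -1.04, SE 0.23, adjusted p = 0.0268). Perp, a desmosomal protein, had 38.0 to 88.1 CPM (median 53.7) and 18.6 to 56.9 CPM (median 37.8) (log2 change -0.63, SE 0.15, adjusted p = 0.0331). Cdkn1a, the cell cycle inhibitor p21, had 151 to 240.5 CPM (median 180.0) and 94.8 to 192 CPM (median 125.3) and 106 to 197 CPM (median 150.2) in unexposed thyroid (log2 change -0.54, SE 0.13, adjusted p = 0.0333). Each was lower in 8 of 9 lesions, with overlapping groups. The calls stood in 5, 3 and 4 of the 9 leave-one-out fits, with adjusted p up to 0.0637 for Gadd45b without mouse 4, 0.0798 for Perp without mouse 8 and 0.0842 for Cdkn1a without mouse 3.

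Genes of cell division, DNA repair and the respiratory chain gave no calls in the edgeR fit, in which 3.08% of all tested genes passed. At that share a list of this size would hold few calls, so their absence says little about a list. Over all 14461 tested genes 2552 (17.6%) had an unadjusted p under 0.05 in edgeR. DESeq2 called 594 of all genes higher and 691 lower, and limma-voom 321 and 209. The counts of single lists below are to be read beside these. Of 37 cell cycle genes none passed, 8 had an unadjusted p under 0.05, the DESeq2 Wald test called 5 and limma-voom 0, and the median was 0.19. A positive change was seen in 29 of the 37, and the within-mouse median was above 0 in 8 of 9 mice, from -0.60 to 1.06. Mki67, a marker of dividing cells, had 7.85 to 50.9 CPM (median 14.7) in NT and 10.2 to 33.5 CPM (median 25.03) in PL (log2 change 0.42, SE 0.23, adjusted p = 0.363). Of 38 genes of DNA repair none passed in edgeR, 3 had an unadjusted p under 0.05, and DESeq2 called 1 and limma-voom 0, with Apex1, a base excision enzyme, at 0.52 (adjusted p = 0.0723). Of 38 nuclear genes of oxidative phosphorylation none passed in edgeR, 6 had an unadjusted p under 0.05, and DESeq2 called 2 and limma-voom 1. In edgeR none of 25 cholesterol genes (4 at an unadjusted p under 0.05, 2 called by DESeq2 and 0 by limma-voom), of 21 of fatty acid synthesis (6, 4 and 1), of 23 of fatty acid oxidation (3, 1 and 0), of 31 of the proteasome (2, 0 and 0) or of 26 selenoprotein genes (4, 1 and 0) passed. None of 20 Hippo genes (2, 2 and 0) and none of 26 interferon genes (7, 3 and 2) passed in edgeR either. Of 29 genes of glycolysis and hypoxia Eno2 fell (-1.10, SE 0.28, adjusted p = 0.0445), and of 27 of ATF4 and amino acid stress Nupr1 fell (-0.67, SE 0.15, adjusted p = 0.0292), with calls in 1 and 3 leave-one-out fits. Khk, which starts fructose breakdown and is in no list, had 9.64 to 37.3 CPM (median 20.9) and 28.3 to 127 CPM (median 65.6) (log2 change 1.45, SE 0.18, adjusted p = 0.00279), higher by 0.79 or more in each mouse.

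Of 20 S100 proteins and annexins 6 fell and none rose, with a median of -0.39. S100a6, a calcium-binding protein, had 373 to 1482 CPM (median 805) in NT and 137 to 685 CPM (median 339) in PL, lower in each lesion, with differences from -0.09 in mouse 6 to -2.83 in mouse 3 (log2 change -1.41, SE 0.29, adjusted p = 0.03). S100a10 and Anxa2, which form a complex at the plasma membrane, fell by 0.68 and 0.75 (SE 0.15 and 0.17). S100a14, known from epithelia, fell, with 15.8 to 51.5 CPM (median 30.04) in NT and 4.78 to 26.2 CPM (median 16.5) in PL (log2 change -1.10, SE 0.21, adjusted p = 0.0158), and Anxa3 by 0.66 (SE 0.17). S100b, known from Schwann cells, fell, with 74.8 to 259 CPM (median 152) in NT and 28.9 to 91.4 CPM (median 55.2) in PL (log2 change -1.44, SE 0.27, adjusted p = 0.0206). S100a11 was at -0.08 (adjusted p = 0.75) and Anxa1 at 0.20 (adjusted p = 0.853). S100b kept its call in 7 leave-one-out fits and S100a6 and S100a10 in 5. Only S100a14 kept its call in all 9 leave-one-out fits, and Anxa2 and Anxa3 did in 3 and 2 (0.0897 without mouse 8 and 0.129 without mouse 8).

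Of 33 genes of epithelial junctions 1 rose and 1 fell. Cldn4, a claudin of tight junctions, had 81.9 to 234 CPM (median 99.5) in NT and 23.4 to 63.4 CPM (median 52.4) in PL, with no overlap (log2 change -1.24, SE 0.18, adjusted p = 0.00599), and Gja1, a connexin, rose by 0.83 (SE 0.21, adjusted p = 0.047). Of 24 genes of the basement membrane 1 rose and 3 fell. Lama5, the laminin chain of epithelia, had 21.6 to 41.2 CPM (median 35.4) in NT and 31.1 to 70.4 CPM (median 48.4) in PL (log2 change 0.66, SE 0.15, adjusted p = 0.0333), higher in 8 of 9 mice. Fras1 fell by 1.16 (SE 0.27), Col4a4 by 0.50 (SE 0.12) and Agrn, the proteoglycan agrin, by 0.62 (SE 0.15). Krt7 fell among 5 keratins (-0.60, SE 0.15, adjusted p = 0.0413), Itgb8 rose among 22 integrins (1.24, SE 0.27, adjusted p = 0.0267) and Erap1 among 23 genes of antigen presentation (0.64, SE 0.15, adjusted p = 0.0393). Of 14 genes of mucins and the apical surface 4 rose and Podxl fell (-0.65, SE 0.15, adjusted p = 0.0311). The rises were those of Muc20, Muc4, Slc34a2, a phosphate transporter (2.50, SE 0.52), and Dpp4, a peptidase (1.16, SE 0.28). Of these calls those of Cldn4 and Muc20 stood in all 9 leave-one-out fits and those of the 4 basement membrane genes in 2 to 4. The calls of Podxl, Slc34a2, Erap1 and Krt7 stood in 2 of them, those of Muc4 and Dpp4 in 3 and that of Itgb8 in 5. Of 24 markers known from human papillary thyroid carcinoma 3 rose (Hmga2, Slc34a2 and Dpp4) and S100a6 fell, with a median of -0.01. Gja1 was at adjusted p = 0.116 without mouse 8, Lama5 at 0.0889 without mouse 8 and Krt7 at 0.0966 without mouse 2.

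Several large rises separated the tissues fully. Fndc3a, a membrane protein with fibronectin domains, had 44.8 to 105 CPM (median 60.4) in NT and 112 to 274 CPM (median 165) in PL, with no overlap (log2 change 1.41, SE 0.15, adjusted p = 0.00142). Epha7, an ephrin receptor, had 9.86 to 22.3 CPM (median 15.7) and 22.5 to 85.5 CPM (median 49.1), again with no overlap (log2 change 1.61, SE 0.22, adjusted p = 0.00537). Acpp, a secreted and lysosomal acid phosphatase, had 17.9 to 49.0 CPM (median 37.3) and 55.5 to 149 CPM (median 103), also apart (log2 change 1.56, SE 0.21, adjusted p = 0.00537). Nptx1, a neuronal pentraxin, had 15.8 to 104 CPM (median 49.5) and 129.9 to 391 CPM (median 185) (log2 change 2.11, SE 0.30, adjusted p = 0.0085), and St8sia2, a polysialyltransferase, had 0.986 to 9.14 CPM (median 5.86) and 12.5 to 21.4 CPM (median 16.5) (log2 change 1.64, SE 0.28, adjusted p = 0.00897). These and Ehf, an epithelial ETS factor (1.34, SE 0.26), and Mansc4 (4.20, SE 0.55) had every lesion above every normal tissue. Slc15a2, a peptide transporter, rose, with 11.7 to 33.4 CPM (median 18.6) in NT and 27.5 to 139.7 CPM (median 50.2) in PL (log2 change 1.44, SE 0.22, adjusted p = 0.00804), and Nkx2-2, a homeobox factor, by 2.02 (SE 0.29), with only 0.09 in mouse 5. Cck, the peptide hormone cholecystokinin, spread widely among lesions, at 2.47 to 294 CPM (median 49.6) against 0.592 to 24.9 CPM (median 4.33) in NT (log2 change 3.84, SE 0.44, adjusted p = 0.00537), highest in mouse 8 and lowest in mouse 9. It belongs to the 31 tested neuropeptide, synaptic and axon guidance genes, of which 4 rose (Cck, Epha7, Slit2 and Efnb2) and 2 fell (Syt7 and Sema3e), with a median of -0.24. Slit2, a guidance ligand, rose by 0.55 (SE 0.13), Efnb2, an ephrin, by 0.59 (SE 0.15), and Sema3e, a semaphorin, fell by 2.12 (SE 0.39), with calls in 2, 2 and 9 of the leave-one-out fits. Ptgs1, cyclooxygenase 1, rose by 2.10 (SE 0.35) and Slc1a1, a glutamate transporter, by 2.39 (SE 0.38).

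Among large falls L1cam, an adhesion molecule, had 8.72 to 32.9 CPM (median 26.4) in NT and 5.02 to 15.7 CPM (median 6.50) in PL (log2 change -1.58, SE 0.26, adjusted p = 0.0085), and mouse 6 differed by only -0.01. Scnn1a, a subunit of the epithelial sodium channel, had 17.7 to 53.3 CPM (median 34.4) and 7.62 to 38.8 CPM (median 14.5) (log2 change -1.12, SE 0.19, adjusted p = 0.00965), and Rai2, a transcriptional regulator, fell, with 26.8 to 50.4 CPM (median 43.5) in NT and 6.01 to 35.5 CPM (median 18.04) in PL (log2 change -1.23, SE 0.19, adjusted p = 0.00786). Tmem47, a protein of cell junctions, fell by 1.34 (SE 0.22). Syt7, a calcium sensor of exocytosis, had 8.87 to 34.8 CPM (median 14.8) and 2.400 to 7.67 CPM (median 3.74), with no overlap (log2 change -1.89, SE 0.28, adjusted p = 0.00599), and Masp1, a protease of the complement system, had 14.6 to 28.2 CPM (median 24.3) and 0.523 to 13.97 CPM (median 7.60), also apart (log2 change -1.95, SE 0.43, adjusted p = 0.0333). All but Masp1 of these falls kept their calls in all 9 leave-one-out fits, and Masp1 in 5 (0.0836 without mouse 3).

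Markers of other cell types moved with the comparison. Of 13 tested C cell markers 8 fell and 1, Scg5, rose, with a median of -3.08. Calca, the calcitonin gene, had 308 to 5262 CPM (median 1232) in NT, 20.9 to 324 CPM (median 38.6) in PL and 656 to 6344 CPM (median 2900) in unexposed thyroid (log2 change -4.49, SE 0.61, adjusted p = 0.00989). The summed level of the 14 markers was 734 to 17016 CPM in NT and 641 to 19137 CPM in PL (medians 2077 and 1045), lower in 7 of 9 lesions. Its extremes follow Chga, a granule protein that parathyroid cells make as well, at 18180 CPM in the PL library of mouse 2 and 14825 CPM in the NT library of mouse 7. Scg5, the member that rose, had 87.1 to 706 CPM (median 339) in NT and 459.7 to 1667 CPM (median 843) in PL, so the sum does not measure C cells alone. Pcsk2 and Scg3, which process and store peptide hormones in granules, had no overlap between tissues (-4.31, SE 0.65, and -3.08, SE 0.49). Ret, a receptor that C cells express, did not pass (log2 change -0.05, SE 0.37, adjusted p = 0.959). All 9 calls of the list stood in the 9 leave-one-out fits. Syt7 is known from neuroendocrine granules as well, and the part of C cells in its fall was not tested. Of 11 airway markers 6 fell, none rose, and their sum was 169 to 7584 CPM in NT and 36.3 to 548 CPM in PL (medians 1285 and 86.0), lower in 9 of 9 lesions. Bpifa1 had 58.8 to 5837 CPM (median 939.8) and 16.9 to 403 CPM (median 29.8) (log2 change -4.35, SE 0.87, adjusted p = 0.0356), and its call stood in 3 of the leave-one-out fits. Of 6 tested basal and squamous markers Spink5 fell (-4.15, SE 0.88, adjusted p = 0.0343), in 2 of these fits past the threshold. Nerve and Schwann cell markers summed to 296 to 510.1 CPM in NT and 182 to 364 CPM in PL (medians 459 and 247), lower in 9 of 9 lesions, with S100b and Pmp22 (-0.67, SE 0.15, adjusted p = 0.0266) past the threshold. These 2 genes alone had 74.8 to 259 and 118 to 240 CPM in NT, and neither fell in mouse 9 (0.01 each). The list's median change was -0.37, and its within-mouse median was below 0 in 7 of 9 mice, from -1.61 to 0.61. Of 13 pericyte and smooth muscle markers Myl9 fell (-1.27, SE 0.25, adjusted p = 0.0184), of 24 fibroblast markers Col6a2 fell (-1.24, SE 0.21, adjusted p = 0.0104) and of 20 endothelial markers Sox17, a transcription factor, rose (1.93, SE 0.34, adjusted p = 0.0159) and none fell. Of those 20 endothelial markers 18 had a negative change, with a median of -0.39, and 12 had an unadjusted p under 0.05 in edgeR. Over all tested genes 17.6% had such a p. Of the 24 fibroblast markers 21 had a negative change, with a median of -0.55. Among them all, 12 had an unadjusted p under 0.05 in edgeR, and DESeq2 called 10 and limma-voom 1. Of the 13 pericyte and smooth muscle markers 9 had a negative change, with a median of -0.52. The pericyte sum was lower in 6 of 9 lesions, and Cald1, Cavin1 and Mef2c (-0.72, SE 0.17, adjusted p = 0.0334) are known from these cells as well. Their part in those falls was not tested. The T and NK cell, B and plasma cell, adipocyte, red blood cell, skeletal muscle, cartilage, mast cell, parathyroid and thymus lists held no call in edgeR. Of their members 1 T and NK cell gene and 1 cartilage gene had an unadjusted p under 0.05, DESeq2 called 1 cartilage gene and limma-voom none. Changes were negative for 13 of 13 T and NK cell and 12 of 13 adipocyte genes. The same held for all tested genes of the red blood cell, skeletal muscle, parathyroid and thymus lists. It held for 4 of 7 B and plasma cell, 1 of 3 mast cell and none of 3 cartilage genes. Matn1 of the cartilage list and Rag2 of the thymus list had no count in the 18 libraries.

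How far the calls carried to a mouse not used for them was measured by leaving each mouse out. Genes called in the other 8 mice had the same sign in the left-out pair in 71.5% (mice 5 and 6) to 99.3% (mouse 8), against 51.4% to 66.3% of all tested genes. The lowest share was for genes called lower when mouse 6 was left out, at 58.1%, where all tested genes gave 56.3%. The median difference of genes called higher was 0.25 in mouse 5, 1.63 in mouse 8 and 1.87 in mouse 3. For genes called lower it was -0.09 in mouse 6 and -2.23 in mouse 3. Each left-out mouse has its own set of called genes, such as 309 higher genes for mouse 5, 83 for mouse 8 and 135 for mouse 3. These medians therefore do not rank the mice. On 1 set of genes for all mice, the median of the 80 moderate rises ran from 0.38 in mouse 6 to 1.04 in mouse 3. That of the 53 moderate falls ran from -0.27 in mouse 6 to -1.24 in mouse 3. This is a description, with no test.

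**Figure D5:**
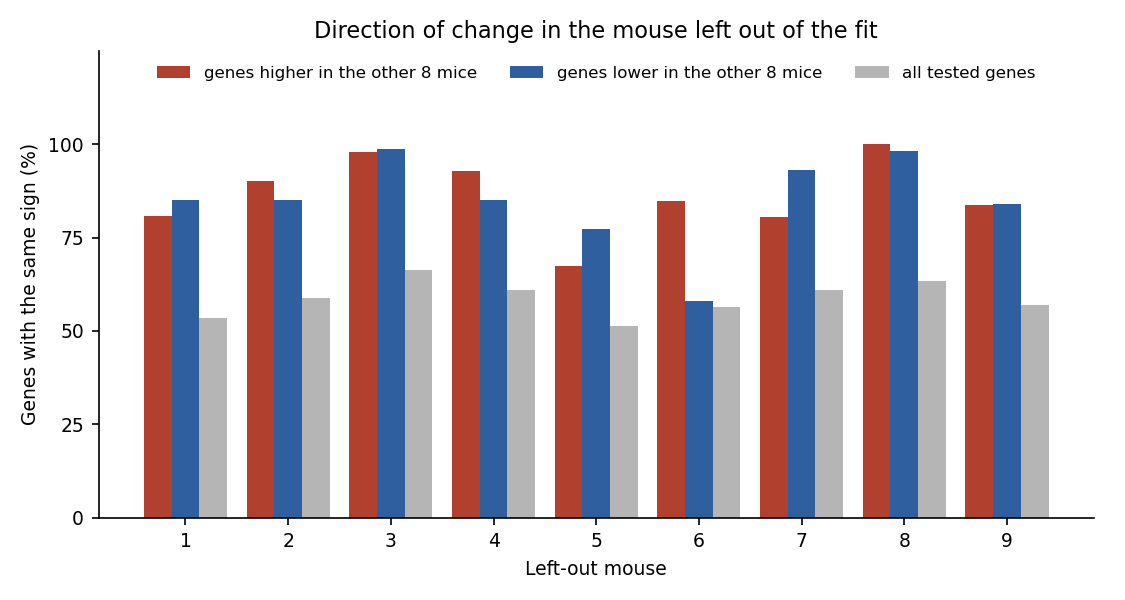
Percent of genes with the same sign in the left-out mouse (y), for genes called higher (red) or lower (blue) in the other 8 mice and for all tested genes (grey), by left-out mouse (x). Shares of called genes run from 58.1% (lower genes, mouse 6) to 100% (higher genes, mouse 8), and those of all tested genes from 51.4% to 66.3%.

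No tested gene differed between male and female mice in its paired change at an adjusted p of 0.05 (edgeR interaction test, 0 of 14461, 0%). The unadjusted p was under 0.05 for 401 genes (2.77%), and the DESeq2 Wald test called 2. With 3 males against 6 females the test has little precision. The pairs came from separate mice, so p-values of the paired fit reflect how the within-mouse difference varied over animals and areas cut out.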

How the data were processed

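QuantSeq 3′ RNA libraries of laser-captured mouse thyroid were deposited by the authors as 1 table of whole-number read counts per gene. The submitters' processing notes name STAR, featureCounts, DESeq2 and the build GRCm38, with no version, role or strand setting. The table holds 54532 rows, of which 54409 matched the GENCODE M21 annotation. The 123 unmatched rows held 0.0251% of counts and stayed in the tests under their gene IDs, unnamed.
The 9 PL and 9 NT libraries, paired by the mouse number in the titles, were fitted with edgeR 4.0.16 in R 4.3.3 (quasi-likelihood test, mouse as a block, TMM scaling, genes kept by a minimum count of 10, 14461 tested, Benjamini-Hochberg adjusted p under 0.05). Same-numbered libraries come from the same mouse, and their deviations from the group means correlated with r from -0.0166 to 0.211, over 0.1 in 5 of 9 pairs. Levels are CPM (counts relative to library size) with TMM over all 27 libraries. Within-mouse differences are log2 CPM with a prior count of 2. SEs are approximate, from the fold change and its F statistic. The tests were checked on simulated counts. Alternatives were limma 3.58.1 (voom), DESeq2 1.42.0, other scalings, filters, no block and left-out mice.
The members and lists were chosen with earlier results of these data known. Named genes, each at a mean of 10 CPM or more, same sign in 9 of 9 pairs and past the threshold, are the 12 moderate rises and 12 moderate falls and the 10 large rises and 10 large falls with the smallest p. To these came up to 3 called members of each list, or the member with the smallest p where none passed, and a fixed set. Predicted genes were only counted, and some genes these rules select are not reported here. Others were added after their values were seen, among them non-overlapping genes, neighbours of called genes, the remaining calls of each list, and genes of caveolae, sphingolipids and retinoids. Depth was 4693945 to 14148601 counts per library, which limits the precision of genes at a few CPM.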

Additional observations from a re-analysis of the deposited data

Results flagged for a closer look

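The within-mouse difference of 1 mouse stood far from the other 8, by Dixon's gap test at 95%, for 7 of the 134 genes tested (5.22%), where chance gives about 1 in 20. Mouse 9 differed by 7.20 on the log2 scale for Slc5a5 (other mice -1.27 to 0.88), by 4.03 for Hs3st3a1 (0.21 to 1.93) and by -5.18 for Cd163 (-2.16 to 0.07). Mouse 3 differed by 3.00 for Dgat2, a gene of triglyceride synthesis (-0.26 to 1.33), and by -2.22 for Ly6c1 (-1.24 to -0.35). Syt7 was at -3.73 in mouse 8 (-2.19 to -0.66). Podxl was higher in the lesion of mouse 6, at 0.64, and lower in the other 8 (-1.08 to -0.48).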

How the results depend on the processing

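In PL against NT, 445 of 14461 tested genes were called, 255 higher and 190 lower in lesions. The DESeq2 Wald test called 1285 (594 higher and 691 lower) and the fit with no low-count filter 832 (427 and 405). Fits on 6 mice called 6 genes in the females, 95 without mice 2, 7 and 9, and 46 without mice 7, 8 and 9. With 1 mouse left out the counts were 137 to 529. The 133 moderate changes lost 8 genes with the sign taken from CPM over 27 libraries (added after the data were seen) and numbered 238 with the DESeq2 Wald test, 0 in the females, 18 without mice 2, 7 and 9, 7 without mice 7, 8 and 9, and 42 to 182 with 1 mouse left out. Upper-quartile scaling gave 234 higher and 217 lower and limma-voom 321 and 209. Without the mouse as a block (unpaired fit) the counts were 402 calls, of which 301 were among the 445, and 93 moderate changes, of which 83 were among the 133. The test by sex called 0 genes, 2 with the DESeq2 Wald test, 7 with no filter and 0 with any 1 mouse left out. No called gene changed sign in any of these fits. Of 182 named called genes the 9 fits with 1 mouse left out kept 80 (without mouse 8) to 171, and the unpaired fit 132. The females kept 5, the fit without mice 2, 7 and 9 43, and that without mice 7, 8 and 9 22. Of 59 list medians 25 turned sign in at least 1 of the 20 alternatives, 14 of them with 1 mouse left out, 5 in the females, 7 without mice 2, 7 and 9, and 9 without mice 7, 8 and 9. Without mice 2, 7 and 9 thyroid hormone synthesis went from 0.23 to -0.06, MAPK output from 0.15 to -0.10 and integrins from 0.09 to -0.04. Without mice 7, 8 and 9 selenoproteins went from 0.15 to -0.01, parathyroid markers from -1.12 to 0.10 and skeletal muscle markers from -0.69 to 0.16. B and plasma cell markers went from -0.53 to 0.66 in the females. Upper-quartile scaling, which shifted the median of all genes by -0.031, turned 3 medians, those of oxidative phosphorylation, fatty acid synthesis and ATF4 targets, each within 0.03 of 0. Depth limits the calls of genes at a few CPM. The part of the parathyroid and airway transcripts of single libraries in the dependence on single mice was not tested.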
